A study of Mus musculus with 2 samples.

Results

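The gene segments that are joined to make antibodies and T-cell receptors were examined for CG methylation in 2 whole genome bisulfite sequencing (WGBS) libraries of mouse osteoblasts. The segments were the autosomal genes of GENCODE M21 (genome build GRCm38) annotated as immunoglobulin or T-cell receptor genes, each taken with 500 bp on either side, and a segment was used when each library held at least 10 calls over it. Of 702 annotated segments, 681 were used, against 50890 of 51229 autosomal genes in all. The 21 left out had too few calls. They were 9 Igh V, 4 Igh D, 6 Igk V and 2 Tra/Trd V segments. The 681 comprised 541 V, 22 D, 94 J and 22 C segments and 2 immunoglobulin pseudogenes of no stated segment, and 201 of them were pseudogenes.

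The WT library came from C57BL/6 mice and the TCKO library from mice of the same labelled strain that carried Prx1-Cre and had Tet1fl/fl, Tet2fl/fl and also Tet3fl/fl alleles, both 3 days old. DNA was taken from primary osteoblasts grown out of calvarial parietal bone for 3 days. Prx1-Cre acts in limb and part of the skull mesenchyme, so any blood-derived cell in the culture would keep its Tet genes. Each genotype had 1 library, and how many mice a library pooled is not given in the sources used here. Bisulfite treatment turns unmethylated cytosine into a base read as T, while 5-methylcytosine and 5-hydroxymethylcytosine are both read as C. A methylation level below is therefore the share of calls read as C, over all CG cytosines of a region, and a difference is TCKO minus WT in percentage points.

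Antigen receptor genes are not inherited whole. In developing lymphocytes the RAG1 and RAG2 proteins cut beside a V, a D and a J segment, or a V and a J segment, and the cut ends are joined ahead of a C segment. V, D and J segments encode the variable domain that meets antigen, and C segments encode the part that anchors the receptor or carries its effector function. Igh encodes the antibody heavy chain, Igk and Igl the light chains, Tra and Trb the alpha and beta chains of most T cells, and Trg and Trd the gamma and delta chains. Trd lies inside Tra, between the V segments and the Traj segments. In cells outside the lymphoid lineage the segments keep their germline order, and osteoblasts are such cells.

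RAG recognises a recombination signal sequence beside each segment, made of a heptamer (CACAGTG), a spacer of 12 or 23 bases and a nonamer (ACAAAAACC). Most of these signals hold no CpG, so the assay reads few of them directly. The signals below are shown because they mark the segments at which recombination starts, and because some carry a CpG in the heptamer. Each is written from the coding segment outward, on the strand of the signal in GRCm38, with heptamer and nonamer in capitals.
Trdd2 5′ side, chr14:54122198-54122225, minus strand: CACGGTGctacagagctttGCAAAAACC
Trdd2 3′ side, chr14:54122242-54122280, plus strand: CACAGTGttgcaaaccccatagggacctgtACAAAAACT
Trdv4 3′ side, chr14:54075516-54075554, plus strand: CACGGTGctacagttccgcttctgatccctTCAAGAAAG
Ighd4-1 3′ side, chr12:113430500-113430527, minus strand: CACGGTGacacgtggctcaACAAAAACC
Trbd1 3′ side, chr6:41533213-41533251, plus strand: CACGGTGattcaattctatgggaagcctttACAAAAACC
Igkj5 5′ side, chr6:70723847-70723885, minus strand: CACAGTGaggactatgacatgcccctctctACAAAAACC

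The next stretches lie over or beside segments named below, 6 with a large difference between the libraries and 1 that was nearly free of methylation in both. They were chosen after their values were seen, and other stretches, such as those over Trav12-3 and Trav15d-3, differed as much as some of them. Each is 200 bases of the plus strand of GRCm38, and capitals mark the CpGs. The first 3 lie upstream of Trav13-3 and its near-copies Trav13d-3 and Trav13n-3, the next 3 lie beside or over Trdd2 (a delta-chain D segment), Trdj1 (a delta-chain J segment) and Traj1 (an alpha-chain J pseudogene), and the last lies over Trbj2-6 (a beta-chain J pseudogene).
Trav13-3 upstream, chr14:53729019-53729218: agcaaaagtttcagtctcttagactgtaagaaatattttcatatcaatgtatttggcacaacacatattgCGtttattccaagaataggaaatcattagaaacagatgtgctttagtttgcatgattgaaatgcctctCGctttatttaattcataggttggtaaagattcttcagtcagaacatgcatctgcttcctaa
Trav13d-3 upstream, chr14:53032363-53032562: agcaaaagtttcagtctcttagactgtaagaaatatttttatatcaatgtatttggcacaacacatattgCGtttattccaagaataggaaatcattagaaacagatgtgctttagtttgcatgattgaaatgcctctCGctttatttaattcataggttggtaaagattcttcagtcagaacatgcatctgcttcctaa
Trav13n-3 upstream, chr14:53336583-53336782: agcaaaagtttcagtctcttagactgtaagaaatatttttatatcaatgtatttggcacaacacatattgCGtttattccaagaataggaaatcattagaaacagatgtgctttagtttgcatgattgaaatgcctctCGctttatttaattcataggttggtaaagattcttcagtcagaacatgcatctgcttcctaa
Trdd2 upstream, chr14:54121801-54122000: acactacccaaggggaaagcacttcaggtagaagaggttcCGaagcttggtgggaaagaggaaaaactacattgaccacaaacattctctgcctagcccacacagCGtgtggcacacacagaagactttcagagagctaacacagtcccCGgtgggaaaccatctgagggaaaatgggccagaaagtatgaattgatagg
Trdj1, chr14:54123001-54123200: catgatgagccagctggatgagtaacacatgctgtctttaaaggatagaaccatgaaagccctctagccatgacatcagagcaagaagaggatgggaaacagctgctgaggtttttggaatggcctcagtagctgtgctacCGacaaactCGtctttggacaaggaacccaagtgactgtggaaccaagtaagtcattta
Traj1 upstream, chr14:54218601-54218800: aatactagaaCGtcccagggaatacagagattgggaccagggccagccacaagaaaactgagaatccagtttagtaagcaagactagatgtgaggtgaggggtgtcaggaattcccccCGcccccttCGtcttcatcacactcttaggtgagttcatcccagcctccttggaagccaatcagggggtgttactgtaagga
Trbj2-6, chr6:41543521-41543720: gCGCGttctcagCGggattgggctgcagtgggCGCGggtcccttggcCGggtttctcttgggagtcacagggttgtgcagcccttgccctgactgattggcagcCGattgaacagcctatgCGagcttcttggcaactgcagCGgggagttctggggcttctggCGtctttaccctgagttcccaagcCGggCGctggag

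The WT library held 250877554 calls on autosomes and the TCKO library 214609823, a mean of 6.15 and 5.26 calls per CG cytosine. A segment held 11 to 911 calls in WT and 10 to 816 in TCKO, with medians of 95 and 78. The targeted genes were looked at through the depth of exons with at least 50 calls in WT. The lowest TCKO to WT ratio was 0.0161 in Tet1, 0.278 in Tet2 and 0.306 in Tet3, against 0.855 over autosomes. Taking the lowest exon of a gene pulls the value down, and lowest exons of other genes were not compared. Within 500 bp of the transcription start, the 6 osteoblast genes ranged in WT from 1.41% (Col1a1) and 2.88% (Runx2), through 9.86% (Col1a2), 23.4% (Alpl) and 38% (Sp7), to 71.8% (Bglap), whereas the B-cell gene Cd79a stood at 70.2% in WT and 77.9% in TCKO and the T-cell gene Cd3e at 83.4% and 80.9%. Of the other B-cell genes, Pax5 was low in both (17.3% and 20%), Cd79b was 46.6% and 67.3% and Ms4a1 75% and 69.4%, and of the 5 T-cell genes, Bcl11b was low in both (0% and 0.990%) and the other 4 ranged from 44.1% to 86.1% in WT and from 70.3% to 89.2% in TCKO. Among the myeloid and pan-blood genes, Csf1r stood at 56.3% in WT and 86.4% in TCKO, Spi1 at 80% and 93.9%, Itgam at 75.8% and 84.7%, and Ptprc at 70.8% and 74.3%. How far these values move with those of the segments was not tested.

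Over all segments together, the level was 62.7% in WT and 64.9% in TCKO, a difference of 2.25 points (95% interval 1.73 to 2.77). Over all autosomes it was 70.4% and 76.6%, a difference of 6.23 points. The segments thus lay below the autosomal level in both libraries and rose less. The difference was unequal among loci. In the immunoglobulin loci the level was 59.5% in WT and 58.4% in TCKO, a difference of -1.04 points (-1.79 to -0.301), and in the T-cell receptor loci it was 65.9% and 71.7%, a difference of 5.78 points (5.06 to 6.50). The intervals of the 2 groups of loci did not overlap. All intervals cover counting error only and take each call as independent. With 1 library per genotype no difference has a replicate check.

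The heavy-chain locus Igh (chromosome 12) stood at 58.2% in WT and 56.7% in TCKO over 220 segments, a difference of -1.55 points (-2.56 to -0.531). The kappa locus Igk (chromosome 6) stood at 61.2% and 60.7% over 176 segments, a difference of -0.474 points whose interval held 0 (-1.59 to 0.638). The small lambda locus Igl (chromosome 16, 12 segments) stood at 56.2% and 54.4%, a difference of -1.82 points with a wide interval (-6.82 to 3.19). None of the 3 immunoglobulin loci was higher in TCKO in value, and only Igh had an interval wholly below 0. Without the 500 bp flanks, the difference was 0.923 points in Igk and 4.39 points in Igl.

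Tra/Trd (chromosome 14, 200 segments) stood at 65.9% in WT and 72.1% in TCKO, a difference of 6.27 points (5.44 to 7.10), close to that of the autosomes. Trb (chromosome 6, 53 segments) stood at 63.1% and 67.3%, a difference of 4.24 points (2.32 to 6.15). Trg (chromosome 13, 15 segments) stood at 70.4% and 74.8%, a difference of 4.43 points (2.29 to 6.56). All 3 T-cell receptor loci had intervals above 0, and Trg was the only locus whose segments equalled the autosomal level in WT. Another 5 segments lay outside the 6 loci and none of them was called.

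**Figure D1:**
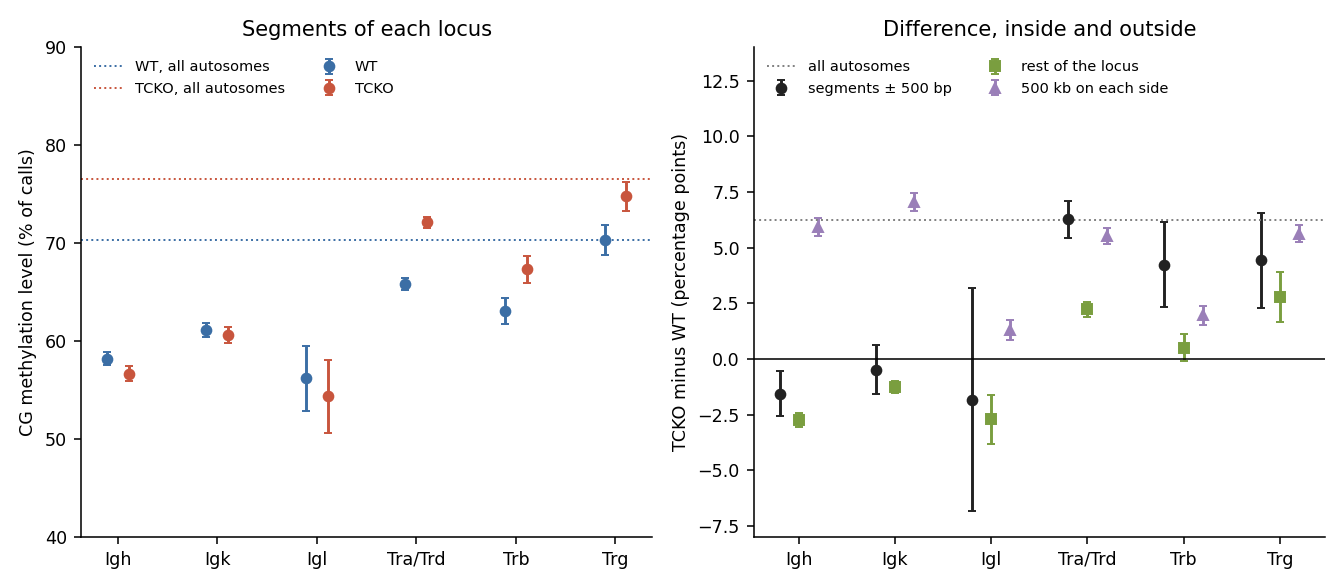
Left, pooled CG methylation level (%) of the segments of each locus in WT and TCKO with 95% Wilson intervals, with dotted lines for all autosomes and an axis that starts at 40%. Right, TCKO minus WT (percentage points, 95% Newcombe intervals) for the segments, for the rest of each locus and for 500 kb on each side: the segments run from -1.82 (Igl) to 6.27 points (Tra/Trd), and the flanks of Igh, at 5.92 points, lie far above the locus itself.

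Igh and Igk also differed from their neighbourhood. Igh outside its segments was 58.4% in WT and 55.7% in TCKO (difference -2.75 points), while the 500 kb on each side of Igh was 71.7% and 77.6% (difference 5.92 points). Igk outside its segments differed by -1.25 points and its flanks by 7.06 points. Most of either locus was thus lower in TCKO between segments, while the flanks were higher. In 50 kb windows, 53 of 55 inside Igh were lower in TCKO and 0 of 21 outside, and 52 of 63 inside Igk and 0 of 21 outside. The only higher windows in Igh, 2 in number, were those at the end that holds the C segments. The Igh C part, with the stretches between its segments, differed by 1.23 points (-0.115 to 2.58), and the Igk J and C part by 0.417 points.

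The flanks of Igl were unlike each other: the locus outside its segments differed by -2.70 points, the side of lower coordinates by 4.53 points (3.93 to 5.13) and the side of higher coordinates by -1.68 points (-2.33 to -1.03). Levels lower in TCKO thus ran on past Igl on one side. Trb outside its segments differed by 0.513 points (-0.0990 to 1.12), and its flanks by 3.57 points on the side of lower and 0.615 points on the side of higher coordinates. Trg outside its segments differed by 2.80 points and its flanks by 5.64 points. In Trb and Tra/Trd the segments differed more than the stretches between them, with intervals that did not overlap, at 4.24 against 0.513 points and 6.27 against 2.23 points.

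Tra/Trd fell into unlike stretches. All 10 windows of its first 500 kb, at the Trav1 end, were lower in TCKO (median -2.77 points), and 24 of the 26 windows beyond were higher (median 4.34 points). That division was placed after the values were seen. Pooled, the first 500 kb stood at 64.1% in WT and 61.2% in TCKO (difference -2.86 points, -3.51 to -2.21) and the rest at 67.2% and 72.0% (difference 4.81 points, 4.44 to 5.18). Over the V segments alone, the 31 in the first stretch differed by 0.673 points (-1.73 to 3.07) and the 103 in the second by 4.75 points (3.57 to 5.94).

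**Figure D2:**
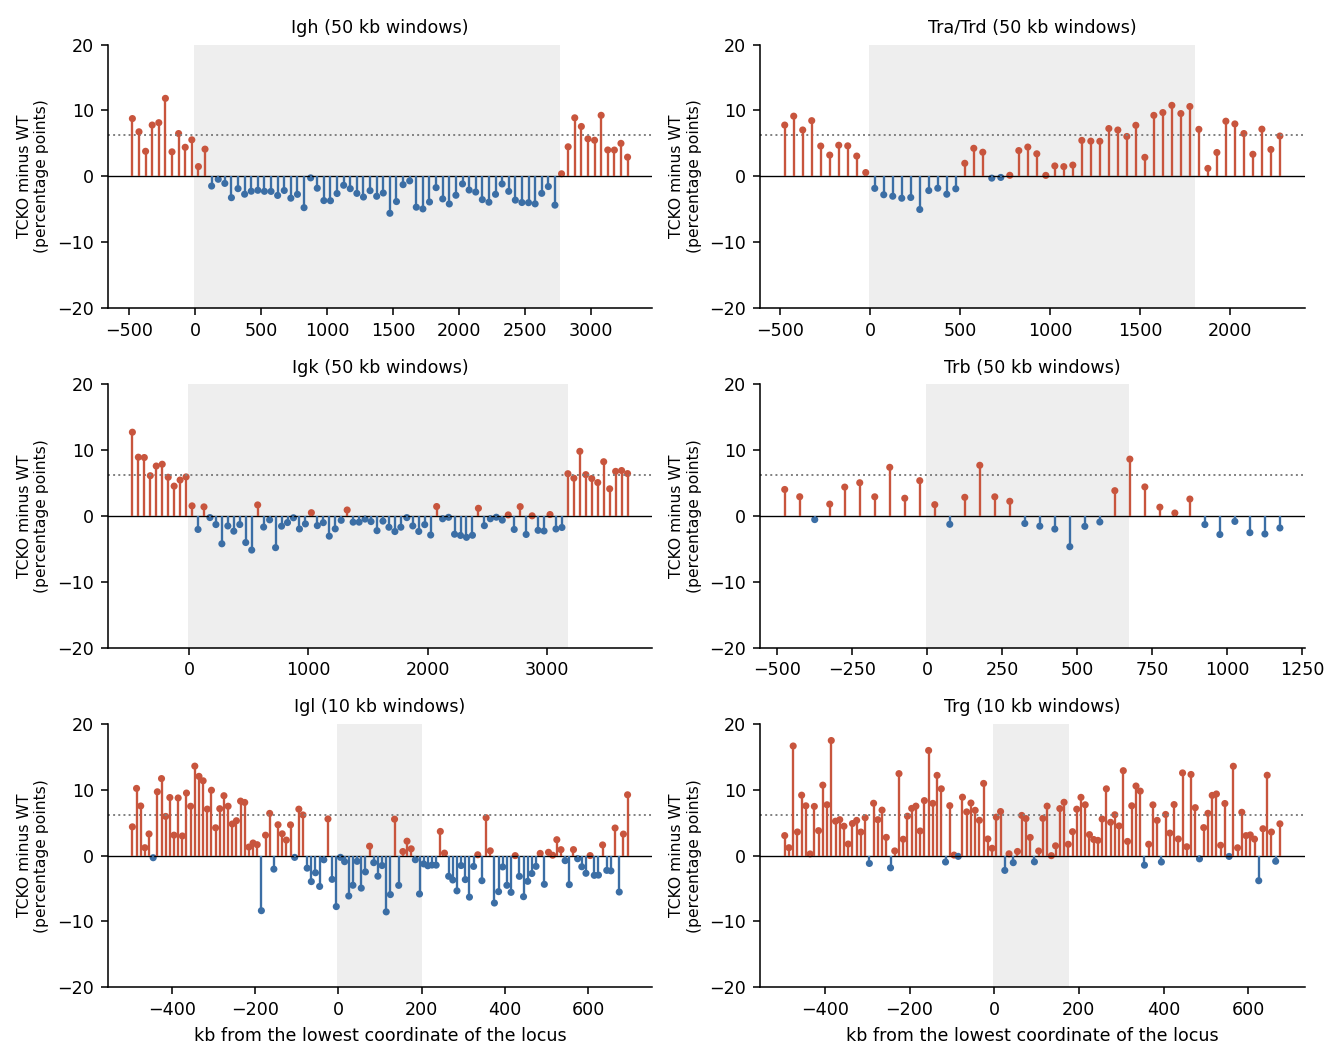
TCKO minus WT (percentage points) in windows along each locus and its flanks, 50 kb wide for Igh, Igk, Tra/Trd and Trb and 10 kb for Igl and Trg, against distance in kb from the lowest coordinate of the locus, with the locus in grey and the autosomal difference dotted. In Igh 53 of 55 inside windows lie below 0 and all 21 outside windows lie above it, and in Tra/Trd the windows pass from below to above 0 within the locus.

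Other large families of clustered receptor genes gave a measure of how common such a difference is. The 1390 olfactory receptor genes stood at 63.7% in WT and 63.5% in TCKO (difference -0.224 points), and the 326 vomeronasal receptor genes, which detect pheromones, at 59.7% and 57.9% (difference -1.77 points). Protein-coding genes as a whole stood at 71.5% and 78.5% (difference 6.98 points). The differences of Igh and Igk therefore lay near those of the chemosensory families, and that of Tra/Trd lay near that of protein-coding genes.

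For single segments, methylated and unmethylated calls were compared by a 2-sided Fisher exact test, the p-values were adjusted over all 50890 genes by Benjamini-Hochberg, and a segment was called at an adjusted p below 0.05. Of the 681 segments, 56 (8.22%) were called higher in TCKO, against 46.6% of all genes. Without the 500 bp flanks, where fewer calls enter, 396 segments entered the pooled difference, and 14 segments were called higher and 8 lower. The share of all genes called without flanks is not given here, so these counts have no background. With flanks, called lower were 13 (1.91%), against 2.02% of all genes. Segments are short and hold few calls, so the 15460 other genes with windows of at most 2000 bp are the closer standard: of these, 16.8% were called higher and 1.33% lower. These short genes held a median of 146 calls in WT, still more than the 95 of the segments. At an unadjusted p below 0.05 there were 93 of the 681 segments, 17 of them lower. The same limit was met by 26817 of the 50890 genes (1403 lower) and by 3549 of the 15460 short ones (327 lower). The 56 segments called higher lay in 44 separate stretches because neighbouring windows overlap. The test compares 2 libraries and not the genotypes.

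Of the 56 segments called higher, 45 were in Tra/Trd, where 22.5% of the segments were called. Igh gave 3 higher and 7 lower of 220, and Igk 2 higher and 5 lower of 176. Trb gave 3 higher of 53 and Trg 3 higher of 15, with 0 lower in either, and Igl gave 0 of 12 by the Fisher exact test, also at an unadjusted p below 0.05. By segment, the calls were 31 higher and 0 lower of 94 J segments (33.0%), 22 higher and 12 lower of 541 V, 1 and 1 of 22 D, and 2 and 0 of 22 C. Of the 56 segments called higher, 29 were J segments of Tra/Trd, in 19 separate stretches against 44 for all 56. The calls lower in TCKO fell mostly on V segments of Igh and Igk. The median difference of single segments was 1.67 points, against 5.29 points for all genes and 3.57 for short ones. It was -2.30 points in Igh, where 92 of 220 segments were above 0, and 5.94 points in Tra/Trd, where 148 of 200 were.

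**Figure D3:**
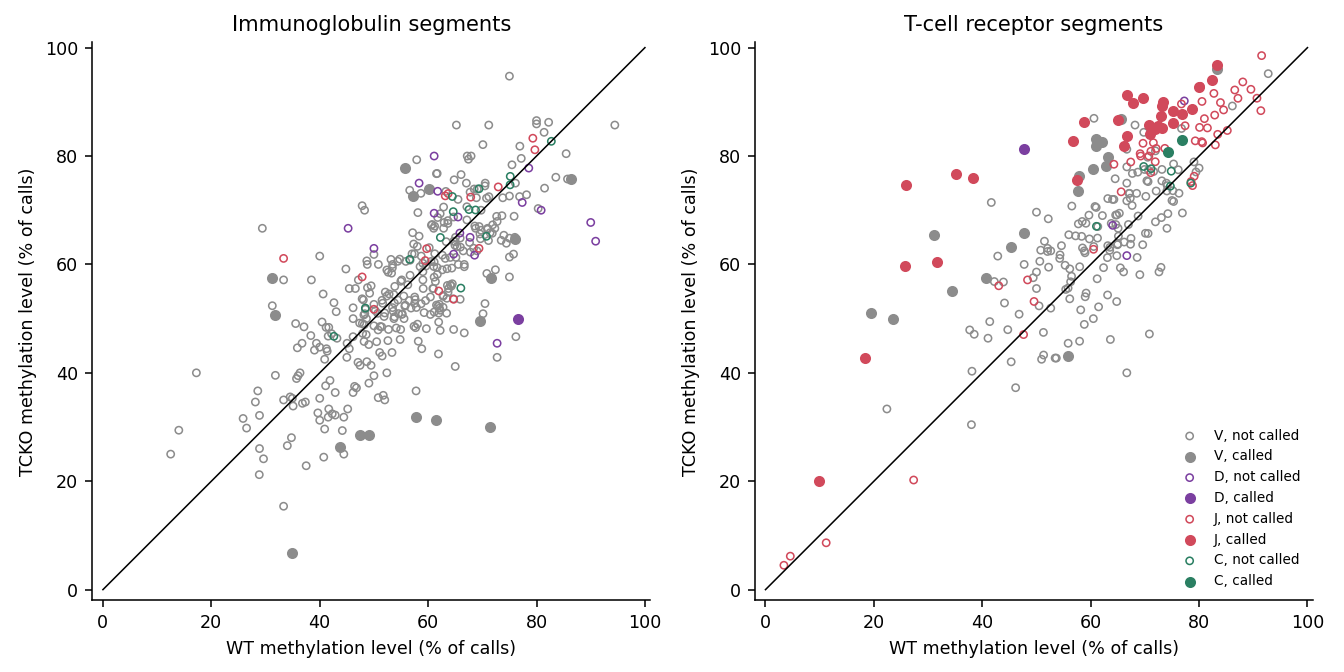
CG methylation level (%) of each segment with its 500 bp flanks in WT (horizontal) and TCKO (vertical), immunoglobulin loci left and T-cell receptor loci right, coloured by V, D, J or C and filled where called at an adjusted p below 0.05. Of the 56 filled points above the diagonal, 29 are J segments of Tra/Trd, some with overlapping windows, while immunoglobulin V segments scatter on both sides of it.

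Pooled by segment, J stood out. The V segments were 60.0% in WT and 60.9% in TCKO (difference 0.900 points, 0.293 to 1.51), D 66.2% and 69.8% (3.61 points, -0.734 to 7.91), J 71.4% and 81.5% (10.1 points, 8.84 to 11.3) and C 71% and 73.7% (2.68 points, 1.18 to 4.16). V segments were the least methylated in both libraries. The alpha locus holds 60 of the 94 J segments and gave 7292 of the 9440 calls over J in WT. Its Traj cluster stood at 74.6% in WT and 85.9% in TCKO (11.3 points, 9.93 to 12.6). The other J clusters differed by less or had wide intervals, and are given below. Of these, Trdj, Trgj and Igkj also had intervals above 0.

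Between the last alpha V segments and Trac lie the delta D, J and C segments, followed by the long row of Traj segments. The stretch from Trdd1 to Trdc (chr14:54113468-54148868) was 76.4% in WT and 85.1% in TCKO over all its cytosines, a difference of 8.68 points, and the stretch from Traj61 to Trac (chr14:54155005-54224206) was 74.6% and 85.3%, a difference of 10.7 points. The 61.3 kb between Trdv4 and Trdj2, which hold Trdd1, Trdd2 and Trdj1, differed by 10.9 points. The V part up to Trdv4 was 65.5% and 67.5%, a difference of 2.04 points. The downstream end of Tra/Trd thus differed by more than the autosomes and the V part by less.

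Of the delta segments, Trdd2, a D segment, was 47.7% in WT (132 calls) and 81.2% in TCKO (96 calls), a difference of 33.5 points (Fisher exact adjusted p = 9.69e-07). Trdd1, the other D segment, was 77.3% in WT and 90.2% in TCKO (exact adjusted p = 0.0772). Trdj1, a J segment, was 66.7% in WT (132 calls) and 91.2% in TCKO (114 calls), a difference of 24.6 points (exact adjusted p = 9.12e-06). Without CpGs that read as absent in 1 library, that is with no methylated call there and at least 75% in the other, Trdj1 was 77.9% and 91.8%, a difference of 13.9 points, and still passed. Trdd2 and Trdj1 passed the test and Trdd1 did not, though it was higher in value as well. The second J segment, Trdj2, was 71.9% and 78.9% (exact adjusted p = 0.371). Trdc, the delta constant gene, was 76.9% in WT and 82.9% in TCKO (difference 5.94 points, exact adjusted p = 0.0141). Trdv5, a delta V segment that lies in the opposite orientation beside Trdc and shares part of its window, was 83.4% and 96.1% (exact adjusted p = 2.76e-05).

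Part of these differences lay in short stretches. The stretch upstream of Trdd2 printed above, with 3 CpGs, was 3.33% in WT (30 calls) and 62.5% in TCKO (24 calls). The printed stretch over Trdj1 was 0% in WT (19 calls, with an upper 95% Wilson bound of 16.8%) and 88.2% in TCKO (17 calls), and its 2 CpGs lie inside the J segment itself. These are the CpGs of Trdj1 that read as absent in 1 library, and a base change there could not be told apart from unmethylated cytosine. That was the largest rise of a testable 200 bp bin over any segment. A stretch between Trdj1 and Trdj2 that lies outside all segment windows (chr14:54128601-54128800) was 0% of 35 calls in WT and 76.9% of 39 calls in TCKO.

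**Figure D4:**
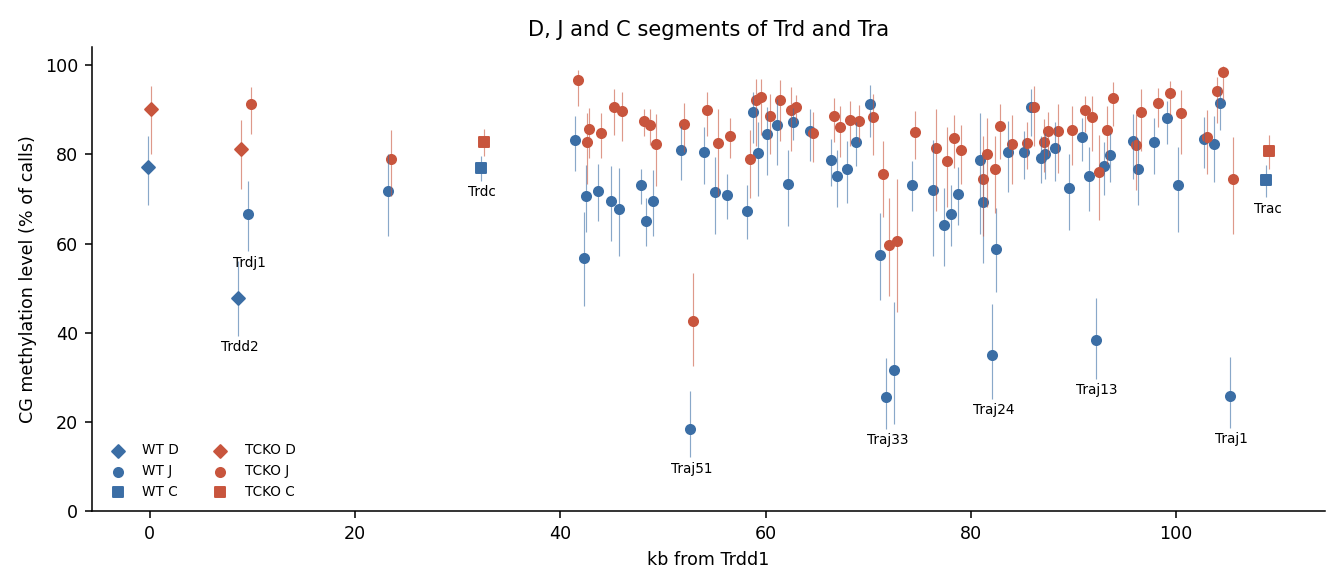
CG methylation level (%) with 95% Wilson intervals of each D, J and C segment of Trd and Tra in WT and TCKO, against distance in kb from Trdd1. Most Traj segments lie between about 60% and 90% in WT and higher in TCKO, and the few that lie below 40% in WT include those with the greatest rises, such as Traj1 (25.9% to 74.6%).

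Of the 62 J segments of Tra/Trd, 57 were higher in TCKO in value, and 29 were called, in 19 separate stretches. Their median difference was 11.2 points, with a range from -4.24 (Traj26) to 48.7 points (Traj1). Traj1, a pseudogene and the J segment nearest to Trac, was 25.9% in WT (116 calls) and 74.6% in TCKO (59 calls), with the lowest adjusted p of all segments (Fisher exact, 4.06e-09). Traj24, a J gene, was 35.1% in WT and 76.7% in TCKO (exact adjusted p = 4.38e-07). Traj13, another J gene, was 38.3% and 76% (exact adjusted p = 1.99e-06). These 3 were among the least methylated Traj segments in WT, and that WT level also enters their difference. In TCKO they stood at 74.6% to 76.7%, below the 85.9% of the cluster.

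The pseudogenes Traj54 (65.0% in WT, 86.7% in TCKO, Fisher exact adjusted p = 8.61e-09) and Traj55 (73.1% and 87.5%, exact adjusted p = 1.12e-07) passed with smaller differences because their windows hold more calls, and these windows adjoin. Traj33, Traj51 and Traj32, chosen after their values were seen, were also low in WT: 25.7%, 18.4% and 31.7%, against 59.7%, 42.7% and 60.5% in TCKO (exact adjusted p = 2.04e-05, 0.00156 and 0.0291). Traj32 did not pass without CpGs that read as absent in 1 library (36.1% and 55.9%). Traj51 remained the least methylated Traj segment in both libraries. Of the Traj segments high in WT, Traj20 was 90.7% in both, Traj35 was 91.4% and 88.4%, and Traj61 was 83.3% and 96.7% (exact adjusted p = 0.0033). These 3 were chosen after their values were seen.

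Levels were also pooled over the intron between the J segments and the constant gene. For Tra, from Traj2 to Trac and with Traj1 inside it, the level was 48.6% in WT and 78.1% in TCKO, a difference of 29.5 points (22.1 to 36.4). For Trd it was 77.0% and 84.9% (7.81 points), for the first and second Trb clusters 62.4% and 69.1% (6.76 points) and 58.9% and 66.7% (7.74 points). For Igh it was 62.1% and 63.7% (1.58 points) and for Igk 77.4% and 76.9% (-0.530 points). The alpha intron thus had the lowest WT level and the largest difference of the 6. The stretch upstream of Traj1 printed above was 22.6% in WT (53 calls) and 70.3% in TCKO (37 calls).

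Trac, the alpha constant gene, was 74.2% in WT and 80.7% in TCKO (difference 6.52 points, Fisher exact adjusted p = 0.0410). Trac and Trdc were the only C segments called. The beta constant genes were 61.1% and 67% (Trbc1) and 69.8% and 78.1% (Trbc2, exact adjusted p = 0.0637), and pooled they differed by 6.99 points (1.08 to 12.7). Of the gamma constant genes, Tcrg-C2 was 71.1% and 77.7% (exact adjusted p = 0.0831), Tcrg-C1 78.5% and 75%, Tcrg-C3 74.7% and 74.4%, and Tcrg-C4 74.9% and 77.2%. The gamma C segments thus did not move together, and pooled they differed by 1.45 points (-1.16 to 4.05).

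The heavy-chain C segments, each of which sets an antibody class, stood apart from the V segments of the same locus. Pooled they were 68.5% in WT and 70.7% in TCKO (difference 2.28 points, -0.232 to 4.77). Ighm (IgM) was 68.8% and 70.05%, Ighd (IgD) 62.3% and 65%, Ighe (IgE) 67.5% and 70.1%, and Igha (IgA) 75.1% and 74.7%. The IgG genes were 69.4% and 74.0% (Ighg3), 75.2% and 76.2% (Ighg1), 64.5% and 72.5% (Ighg2b, Fisher exact adjusted p = 0.0521) and 56.6% and 60.9% (Ighg2c). None of them passed, and 7 of the 9, with the pseudogene Gm37944 (70.8% and 65.2%) among the other two, were higher in TCKO in value.

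Of the light-chain C segments, Igkc was 82.7% in both libraries, the highest C level in WT. Iglc1 was 66% and 55.6% (difference -10.4 points, Fisher exact adjusted p = 0.107), Iglc2 42.6% and 46.7%, Iglc3 48.4% and 51.9%, and Iglc4 64.6% and 69.7%. The lambda C segments were thus lower and more uneven than the kappa one.

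Among J clusters other than Traj, Trdj was 68.8% in WT and 85.1% in TCKO (16.3 points, 8.56 to 23.9). Trgj was 55.8% and 64.0% (8.20 points, 0.893 to 15.3), Igkj 74.7% and 80.4% (5.68 points, 0.401 to 10.9) and Iglj 51.5% and 58.7%. Ighj was 64.6% and 59.3% (-5.26 points, -18.4 to 7.77), from 127 and 86 calls. All but Ighj were higher in TCKO in value, and at this depth the sign for Ighj could not be read.

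The 2 beta clusters were unlike each other. Trbj1 stood at 71.8% in WT and 76.2% in TCKO (4.42 points, -2.20 to 10.9). Trbj2 stood at 28.3% and 33.2% (4.96 points, -2.44 to 12.3) and is rich in CpGs, with 22.8 per kb. Along Trbj2 the level fell from 60.5% in WT and 62.8% in TCKO at Trbj2-1, through 49.5% and 53.2% at Trbj2-2 and 27.3% and 20.2% at Trbj2-3, to 11.2% and 8.64% at Trbj2-4, 4.58% and 6.17% at Trbj2-5 and 3.40% and 4.49% at Trbj2-6. Trbj2-6 was thus nearly free of methylation in either library. It was the least methylated segment of all in both, among the 606 with at least 30 calls in each. The printed stretch over it, with 12 CpGs, gave 0% of 47 calls in WT (upper bound 7.56%) and 2.78% of 36 in TCKO. Trbj2-7, the last J of the cluster, was 9.95% and 20.1% (Fisher exact adjusted p = 0.0116). Trbj1-4, chosen after its values were seen, was 66.2% and 81.8% (exact adjusted p = 0.0356), and these 2 were the only beta J segments called.

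The 18 Igh D segments used were 68.4% in WT and 67% in TCKO together (-1.45 points, -6.94 to 4.02). Single ones ranged from -27.3 points (Ighd5-6, 22 calls in WT and 11 in TCKO) to 21.4 points (Ighd5-7), and Ighd5-7 was 50% and 63% without a CpG that read as absent in 1 library. Ighd2-5 was 76.7% and 50% (Fisher exact adjusted p = 0.0149), the 1 D segment called lower. Ighd4-1, the D segment nearest to the J segments, was 61.8% and 73.5%. Higher in TCKO in value, besides Ighd5-7 and Ighd4-1, were Ighd5-3 (50% and 63%), Ighd6-1 (61.1% and 80%), Ighd6-2 (58.3% and 75%), Ighd2-4 (61.1% and 69.4%) and Ighd5-2 (65.5% and 68.8%). Lower in value, besides Ighd5-6 and Ighd2-5, were Ighd5-4 (90.9% and 64.3%), Ighd5-8 (90% and 67.7%), Ighd2-6 (80.9% and 70%), Ighd3-1 (68.6% and 61.7%), Ighd2-8 (77.4% and 71.4%), Gm37327 (64.7% and 61.9%), Ighd2-7 (67.7% and 65%), Ighd5-5 (78.6% and 77.8%) and Ighd2-3 (65.9% and 65.8%). Igh D segments thus moved in both directions. Of the beta D segments, Trbd1 was 66.7% and 61.6% and Trbd2 64.1% and 67.2%. No Igh D segment held more than 102 calls in WT, so differences of a few points were not detectable at this depth.

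The V segments of Igh were 55.7% in WT and 53.6% in TCKO (difference -2.10 points, -3.23 to -0.958), the lowest V level in TCKO of any locus except Igl. Igh V genes differed by -2.84 points (-4.27 to -1.41) and Igh V pseudogenes by -0.879 points (-2.73 to 0.967). These intervals overlap, so the division does not separate them. The greatest fall among Igh V segments with at least 30 calls was in Ighv8-14, a pseudogene, with 34.9% of 43 calls in WT and 6.67% of 30 in TCKO (Fisher exact adjusted p = 0.0122). The greatest rise was in Ighv2-9-1, with 31.2% and 57.6% (exact adjusted p = 0.0478). Ighv6-4 and Ighv1-6, among the least methylated in WT, were 12.5% and 14% there and 25% and 29.4% in TCKO, and neither passed.

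By family, Ighv1, the largest with 87 of its 93 segments used, was 56.7% in WT and 54.5% in TCKO (difference -2.25 points, -4.05 to -0.450). Calls may be misplaced among near-identical copies of this family, which was not tested. Ighv4, with 2 segments, was 40.2% and 30.4% (-9.82 points, -17.2 to -2.13). Ighv4-1, called lower and chosen after its values were seen, was 43.7% and 26.4%. The other Igh families had intervals that held 0. Distance from the J segments did not order the Igh V differences: over 187 segments of 2 libraries, Spearman's rho with the distance was -0.0100, and when the V segments were split into 3 equal groups from nearest to farthest, these differed by -1.85, -3.02 and -1.30 points.

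Igk V segments were 60.5% and 59.9% (-0.672 points, -1.81 to 0.466). Among those with at least 30 calls in each library, Igkv12-41 fell most, from 61.5% in WT to 31.2% in TCKO (Fisher exact adjusted p = 0.0130). Igkv8-30 had the greatest rise in value among them, 56.6% and 73.7% (exact adjusted p = 0.205). Among Igk families, those with an interval that left out 0 were Igkv5 (8.01 points, 1.75 to 14.1) and 2 of a single segment, Igkv18 (15.5 points, 2.85 to 27.1) and Igkv19 (-17.3 points, -33.3 to -0.640). The rho of the difference with the distance to Igkj was 0.0513 over 170 segments. Of the lambda V segments, Iglv1 was 50.8% and 35.4% (exact adjusted p = 0.208) and Iglv2 42.2% and 47.2%. Kappa V segments lie in both orientations, 80 on the plus and 90 on the minus strand.

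Tra/Trd V segments were 61.7% in WT and 65.6% in TCKO (3.90 points, 2.84 to 4.97), with 13 called higher and 1 lower of 134. Much of the alpha V cluster is a repeated block, whose copies are named with d and n. The family Trav13 was 51.7% and 61.9% (10.2 points, 5.90 to 14.5, 11 of 12 used), Trav12 63.8% and 72.2% (8.44 points, 4.69 to 12.1), and Trav15 differed by 8.39 points (3.61 to 13.1). Trav23, already at 92.8% in WT, was 95.2% in TCKO. These families were chosen after their values were seen. Trav1, the V segment farthest from the J segments and chosen after its values were seen, was 57.7% and 73.6% (Fisher exact adjusted p = 9.79e-05).

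Trav13-3, a pseudogene, showed the greatest rise among Tra/Trd V segments with at least 30 calls: 19.4% of 139 calls in WT and 51.0% of 100 in TCKO (Fisher exact adjusted p = 1.49e-06). Its copies, chosen after their values were seen, were 23.4% and 50% (Trav13d-3) and 34.3% and 55.1% (Trav13n-3). Trav13n-3, called with all its CpGs, was 37.7% and 54.3% without those that read as absent in 1 library, and was not called. The 3 printed upstream stretches are nearly the same sequence, with 199 of 200 bases shared between Trav13-3 and each copy and 200 of 200 between the copies, and each holds the same 2 CpGs. They were 7.53% in WT and 53.8% in TCKO (Trav13-3, 93 and 78 calls), 12.2% and 67.5% (Trav13d-3, 41 and 40 calls) and 6.25% and 75% (Trav13n-3, 16 and 28 calls). All 3 were low in WT and above 50% in TCKO, at 3 places far apart in the locus. The authors kept uniquely mapped reads, so a read had to reach a base that tells the copies apart. Trav13d-3 and Trav13n-3 have no such base within the printed stretch. Trav13-3 differs from them there by a C against a T, which bisulfite treatment can make alike on the plus strand. Reads of copies this alike could still be misplaced within the 2 mismatches allowed. Whether the 3 copies are independent of each other was not tested. Trav13n-1, of the same family, had the greatest fall among these V segments, 70.8% and 47.2%, and did not pass (exact adjusted p = 0.0525).

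Of the beta V segments, Trbv5 had the greatest rise, 61.0% in WT and 81.9% in TCKO (Fisher exact adjusted p = 8.62e-05), and Trbv15 the greatest fall, 69.1% and 58.1%, which did not pass. Together the 35 beta V segments were 64.7% and 68.8% (4.06 points, 1.87 to 6.25). Gamma V segments were 65.6% and 75.3% (9.71 points, 5.52 to 13.8), and 3 of 7 were called. Tcrg-V7 was 61.0% and 83.1% (exact adjusted p = 0.0288), and Tcrg-V5 was the only gamma V segment lower in TCKO in value, at 74.2% and 69.4%. The gamma V segments thus differed more than the gamma C segments, whose interval held 0.

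The V segments also differed in how the level ran along them. In Tra/Trd, the level in WT fell from 72.4% at 500 to 400 bp upstream to 37.3% in the last 100 bp before the segment (971 calls), and in TCKO from 75.5% to 42.9% (690 calls). Igh V segments had no such dip, with 59.7% in WT and 55.3% in TCKO in the last 100 bp, nor had Igk V segments, with 61.2% and 63.6%. Trb and Trg V segments, read by fewer calls, were also lower just upstream in WT. From the step that starts 400 bp upstream to the last 100 bp, Trb went from 74.0% to 56.5% in WT. In TCKO it went from 68.9% to 65.1%. Trg went from 69.6% to 47.8% in WT (56 and 69 calls) and from 80.9% to 66.7% in TCKO. Only the WT intervals of Trb did not overlap, and that step was chosen after the values were seen. In Igh the middle of the segment body was 53.7% and 43.3% (665 and 508 calls), a difference of -10.4 points. It was the largest fall along these segments, and the other steps ran from -8.45 to 2.09 points. The dip before Tra/Trd V segments was present in both libraries.

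**Figure D5:**
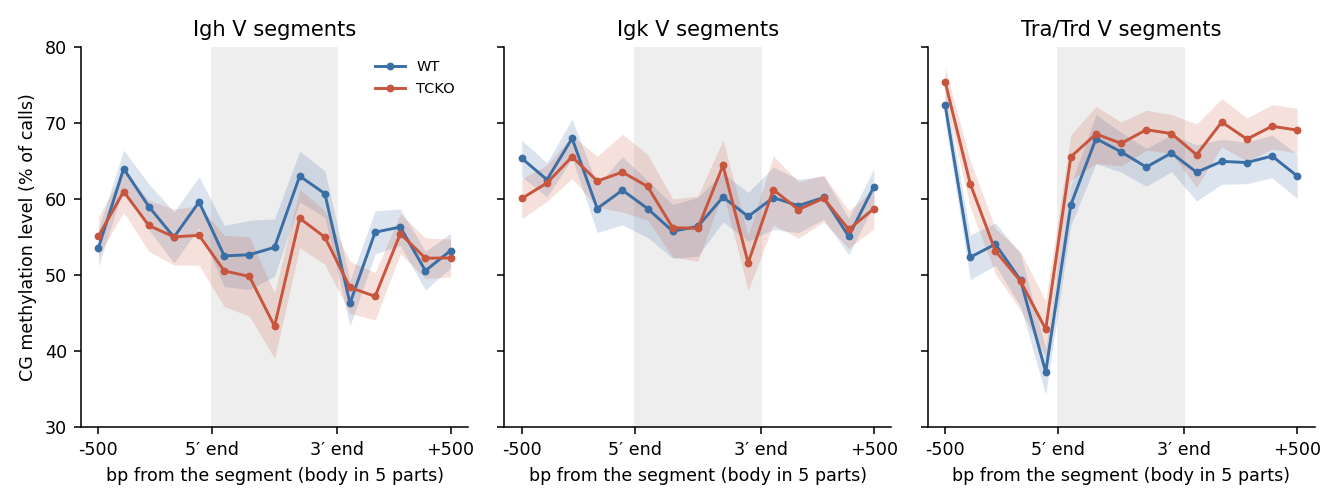
CG methylation level (%) along V segments of Igh, Igk and Tra/Trd in WT and TCKO, from 500 bp upstream to 500 bp downstream in steps of 100 bp and with the segment body in 5 equal parts; bands are 95% Wilson intervals. Tra/Trd V segments dip just upstream in both libraries (37.3% in WT and 42.9% in TCKO), and Igh and Igk V segments do not.

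Immunoglobulin V promoters carry an octamer, ATGCAAAT or its reverse ATTTGCAT, that is bound by the OCT factors of B cells. Within 250 bp upstream it was found, on either strand, at 90 of 115 Igh V genes (78.3%), 39 of 81 Igh V pseudogenes (48.1%), 73 of 102 Igk V genes (71.6%), 23 of 74 Igk V pseudogenes (31.1%) and 3 of 3 Igl V genes. It was found at 0 of 115 Tra/Trd V genes and at 1036 of 51229 autosomal genes (2.02%). The same 250 bp were 55.7% in WT and 51.7% in TCKO at Igh V genes, 59.6% and 61.9% at Igk V genes, and 43.4% and 46.3% at Tra/Trd V genes. At the 3 Igl V genes they were 40% and 21.9%, from 40 and 32 calls. The octamer has no CpG, so the assay does not read it.

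Recombination signals were looked for at the 699 coding ends of V, D and J segments, and 511 were found with a heptamer starting CAC within 3 bases of the end and at least 5 of 9 nonamer bases. Of these, 336 had the heptamer CACAGTG exactly and 62 the nonamer ACAAAAACC exactly. A CpG was present in 74 (14.5%), most often in Tra/Trd (22.5%) and least in Igk (4.48%) among the larger loci, and in the heptamer itself in 22. Pooled, these CpGs were 64.9% in WT (593 calls) and 71.5% in TCKO (480 calls), a difference of 6.53 points (0.916 to 12.04). At V segments they differed by 1.10 points, at D segments by 21.4 points (6.46 to 34.7, from 92 and 71 calls) and at J segments by 11.7 points (0.642 to 22.3). The intervals for V and J signals overlapped, and the value at D segments rested on few calls.

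Single signals were read by few calls. At the printed 5′ signal of Trdd2, whose heptamer has the CpG, 2 of 5 calls were methylated in WT and 3 of 4 in TCKO. At Ighd4-1 it was 17 of 32 and 17 of 23, at Trbd1 3 of 5 in both, and at Trdv4 33 of 35 and 23 of 25. The Trdv4 signal was thus almost fully methylated in both libraries, whereas Ighd4-1 was not. The Igkj5 signal, which matches heptamer and nonamer exactly, holds no CpG, and its methylation cannot be read by this assay.

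Differentially methylated stretches were also called as CG-DMRs, hyper or hypo in TCKO, that is 200 bp bins with at least 4 CG cytosines, a mean of at least 4 calls per cytosine in each library, an adjusted p below 0.05 (Fisher exact, over all testable bins) and a difference above 40 points. Of 762 testable bins over segments, 9 (1.18%) were hyper-CG-DMRs, against 2.93% of the autosomal bins, and 0 were hypomethylated by the same limits, against 0.0343%. All 9 were in Tra/Trd, 9 of 295 bins (3.05%), a share near that of the autosomal bins. Over the whole loci, 34 of 7067 bins (0.481%) were hyper-CG-DMRs and 3 were hypo. The Igh locus had 0 of 2011 against 17 of 823 in its flanks, and Igk 6 of 2467 against 29 of 1207. Tra/Trd had 26 hyper (1.49%) and all 3 hypo stretches among 1744 bins, against 23 hyper of 1252 (1.84%) in its flanks. Of the 26, 17 lay outside segment windows. Of the segments, those with such a bin included Trav13-3, Trav13d-3, Trav13n-3, Trdd2, Trdj1 and Traj1.

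Segments below 30% in WT, among those with at least 30 calls in each library, numbered 18. Of these, 7 were immunoglobulin and 11 T-cell receptor segments. Of the 18, 6 were called higher, against 56 of all 681 (8.22%). They were picked by a low WT level, which also enters the test, so that count cannot be read as a result. In TCKO, 15 immunoglobulin and 5 T-cell receptor segments were below 30%. Weakly methylated segments were thus fewer in TCKO in the T-cell receptor loci and more numerous in the immunoglobulin loci, a contrast that was not tested. Across the 681 segments, Spearman's rho of the difference with the WT level was -0.125, of the WT level with CpGs per kb 0.314, and of the difference with CpGs per kb 0.221. These describe segments that share 2 libraries and partly overlap, and the WT level enters the first of them on both sides.

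The genes that act on these segments were compared with the same test. Of 34 such genes, 26 were called higher, 0 lower, and their median difference was 6.995 points, with a range from -1.89 to 17.5. Of all protein-coding genes, 64.9% were called higher, with a median difference of 5.73 points. Of the recombination, joining and editing genes, 14 of 16 were higher: Rag1, a recombinase subunit, was 67.5% in WT and 78.3% in TCKO (Fisher exact adjusted p = 6.36e-12) and Rag2 56.4% and 63.2% (exact adjusted p = 0.00533). Dntt, which adds bases at the joins, was 70.9% and 73.1% and Lig4, a DNA ligase, 68.2% and 66.3%, and neither passed. Surrogate light chain and pre-T alpha genes were higher in 2 of 5, with Ptcra at 64.7% and 78.5% and Vpreb1 at 49.9% and 49.3%. Receptor signalling subunits were higher in 3 of 6, and lymphoid transcription factors in 7 of 7, with Bcl11b at 59.8% and 77.4%. These genes are longer and hold more calls than the segments, so their share called cannot be set against that of the segments directly.

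Depth over the segments ran in WT from 5.17 calls per CG cytosine in Tra/Trd to 8.32 in Igk, against 6.15 on autosomes. In TCKO it ran from 4.29 in Tra/Trd to 7.25 in Trg, against 5.26. The TCKO to WT ratio of calls, relative to the autosomes, was 0.959 in Igh, 0.998 in Igk, 0.911 in Igl, 0.971 in Tra/Trd, 1.01 in Trb and 1.03 in Trg. Windows of 106 segments overlapped those of another, and the 681 lay in 607 separate stretches. CpGs methylated at 75% or more in WT and at 0% in TCKO, the reading a CpG lost from the TCKO genome would also give, numbered 3 of 3649 such highly methylated CpGs in Igh (0.0822%), 3 of 5430 in Igk (0.0552%), 2 of 4520 in Tra/Trd (0.0442%) and 0 in Igl, Trb and Trg, against 0.0611% on autosomes and 0.186% on chromosome 6 as a whole, which also carries Tet3. Without the CpGs that read so in either library, 54 of the 56 calls higher and 13 of the 13 calls lower remained.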

How the data were processed

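WGBS was measured in 1 WT and 1 TCKO library of primary osteoblasts. The authors used BSMAP 2.74 to place reads on GRCm38 with up to 2 mismatches and used only reads with a unique position. The deposited files hold unnormalized counts per CG cytosine and strand (methylated calls, and methylated plus unmethylated calls). Duplicate removal is not given in the sources used here. All positions fell on a CG of the reference.

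From these counts, methylated calls over all calls were pooled per segment, locus or bin, each cytosine counted once, with 95% Wilson intervals and Newcombe intervals for differences. Calls on 1 read are not independent. Intervals and p-values take each call as independent, so they understate even the counting error, and they hold no spread between mice. The minimum was 10 calls per window in each library. Windows and 200 bp bins were compared by a 2-sided Fisher exact test, adjusted by Benjamini-Hochberg over all genes or testable bins. This compares the 2 libraries, not the genotypes. The test was also run on simulated calls that were drawn independently, so that run cannot show how dependence between calls of 1 read affects it. Segments and lists were chosen with earlier results of these data known. Named were all C and D segments, J segments by cluster, the V segments with the greatest rise and fall per locus among those with at least 30 calls in each library, the 8 lowest adjusted p, the 8 lowest WT levels and 5 lowest TCKO levels, and the recombination genes. A B-cell marker gene is not reported here. Alternatives are given in the closing section. Python 3.11.15, numpy 2.4.6, pandas 2.3.3, scipy 1.17.1, numba 0.67.0 and matplotlib 3.10.9 were used.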

Additional observations from a re-analysis of the deposited data

How the results depend on the processing

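Windows without flanks, a minimum of 20 calls, overlapping windows counted in full, the mean of cytosines with at least 4 calls, leaving out CpGs that read as absent in 1 library and leaving out pseudogenes were tried on 13 results. Of these alternatives 64 gave the same result, 9 moved it and 0 reversed a called direction. Without flanks, 396 segments entered the pooled difference, and 14 segments were called higher and 8 lower. The difference was then 0.923 points in Igk, 4.39 in Igl, 3.98 in Tra/Trd, 6.88 in Trb, 2.01 over V and 7.70 over J segments. Igk and Igl changed sign there, and their intervals with flanks hold 0. Fewer calls enter these windows, and D segments gave no value. By the mean of cytosines, Trg differed by 7.44 points, and the cause was not tested. No paired analysis was possible because each genotype has 1 library. Depth limits D segments most, with a median of 39.5 calls in WT and 35.5 in TCKO.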
